A study of Populus trichocarpa with 9 samples.

Results

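The genes described here encode the middle steps of monolignol biosynthesis, in which the aromatic ring of a lignin precursor is hydroxylated, its side chain is ligated to coenzyme A, and the ester is passed through a shikimate intermediate. They are PtrC4H1 (Potri.013G157900), PtrC4H2 (Potri.019G130700), PtrC3H3 (Potri.006G033300), Ptr4CL3 (Potri.001G036900), Ptr4CL5 (Potri.003G188500), PtrHCT1 (Potri.003G183900), PtrHCT6 (Potri.001G042900), PtrCSE1 (Potri.003G059200) and PtrCSE2 (Potri.001G175000). The 9 genes were taken by name from the gene and primer lists of the study, out of 41335 gene models in the count table. No measured value was used, but earlier results of these data were known. The study had reported PtrC4H2, Ptr4CL5 and PtrHCT1 as repressed in bent stems. All 9 genes were among the 27795 that passed the filter on low counts. They cover 5 enzyme steps, and 4 of the steps have 2 paralogs (copies of a gene within one genome). The question was whether the paralogs of a step behaved alike in bent stems.

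RNA was sequenced from stem differentiating xylem (SDX), the layer of young wood cells that is laying down secondary walls, of Populus trichocarpa (black cottonwood) trees grown in a greenhouse for 6 months. The 9 libraries formed 3 groups of 3. Stems of the day 0 group were left unbent. Stems of the other groups were held at a right angle for 3 or 7 days, and their SDX was scraped from the upper side, where tension wood forms. All groups had the same species, age class and tissue, and no transgene or other treatment is given in the labels. There was no unbent group at day 3 or day 7, so bending and elapsed time cannot be told apart. The study describes its replicates as biological, and the labels do not say whether each was a tree of its own.

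Lignin is a polymer of monolignols, which plants make from phenylalanine. Phenylalanine ammonia-lyase (PAL) releases cinnamic acid, cinnamate 4-hydroxylase (C4H) adds the first ring hydroxyl to give p-coumaric acid, and 4-coumarate:CoA ligase (4CL) activates the acid as a CoA thioester. Hydroxycinnamoyl-CoA:shikimate hydroxycinnamoyltransferase (HCT) then moves the acyl group to shikimate, the cytochrome P450 enzyme C3H adds the next hydroxyl to this ester, and caffeoyl shikimate esterase (CSE) or HCT in reverse leads the caffeoyl unit back to the main path. Tension wood is known as a wood with abundant cellulose and little lignin.

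Paralogs of a step are close copies, and a count table can separate them only through the bases at which their transcripts differ. How reads that match several places were counted is not given in the sources used here, so the split of reads within a pair is uncertain, while the sum over a pair depends less on it. The RT-qPCR primers that the study designed for these genes show such bases, and the primers of the C4H and HCT pairs align with each other. They are printed 5′ to 3′, in lower case with capitals at the bases that differ between the paralogs.
PtrC4H1 forward: aGtgCgcCatAgaCcatatCCtC
PtrC4H2 forward: gaaAtgTgcAatTgaTcatatTTtG
PtrC4H1 reverse: attgcagcGacGttgatgttctcA
PtrC4H2 reverse: attgcagcAacAttgatgttctcC
PtrHCT1 forward: atcaGcatgTaaGgcacgCgG
PtrHCT6 forward: agatcaAcatgCaaAgcacgTgA
PtrHCT1 reverse: tgccaaagtaaccaggTggAagCGT
PtrHCT6 reverse: gccaaagtaaccaggAggGagTTG
The C4H primers differed at 8 of 23 aligned bases on the forward side and at 3 of 24 on the reverse side. The HCT primers differed at 5 of 21 and at 5 of 24 aligned bases. The 4CL and CSE primers did not align between paralogs and are not shown.

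Levels are given as CPM, the counts of a gene relative to the library total after scaling by TMM factors, for replicates 1, 2 and 3 in that order. Total counts were 20888144 to 29539805 per library, so 1 count was worth 0.0321 to 0.0482 CPM, and every member lay far above that in every library. Gene lengths were not available for this count table. Levels of genes, and ratios and sums of paralogs, are therefore each compared only with themselves across groups. Unbent replicate 1 stood apart from the other unbent libraries on the main axis of variation (a score of -99.6 on an axis holding 33.6% of the variance, beside -25.8 and -43.2). The 5 secondary wall cellulose synthase genes of the study, used as a check of the tissue, were at 205 CPM or more in every library. Their summed level was 6249 to 7316 CPM in unbent stems, 3295 to 8524 CPM after 3 days and 8001 to 12794 CPM after 7 days. The 5 genes did not move alike, so the sum is not a neutral gauge of the tissue. In unbent, 3-day and 7-day stems the means were 2313, 943 and 1599 CPM for PtrCesA4 and 850, 565 and 815 CPM for PtrCesA17. They were 1192, 1148 and 2403 CPM for PtrCesA7, 375, 357 and 675 CPM for PtrCesA8, and 1989, 2705 and 5384 CPM for PtrCesA18. Fewer wall-forming cells and less RNA per cell cannot be told apart in such tissue samples.

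After 3 days of bending all 9 members had negative log2 fold changes, between -1.22 for PtrC4H2 and -0.17 for PtrCSE2, with a median of -0.71 against -0.005 for all 27795 genes tested. By edgeR's quasi-likelihood test 0 of the 9 passed an adjusted p of 0.05, as did 0% of all genes (0 called), although 4 members and 3265 genes in all had an unadjusted p under 0.05. DESeq2 called PtrC4H2 and PtrHCT1 lower (2.94% of genes called), and edgeR's exact test called 0 members (1.67% called). In PtrC4H2, Ptr4CL3, Ptr4CL5 and PtrHCT1 all 3-day libraries lay below all unbent libraries, which was so for 8.04% of all genes. No member had all 3-day libraries above the unbent ones, which was so for 7.07% of all genes.

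After 7 days the members differed in the sign of their values. Against unbent stems 5 had positive and 4 had negative log2 fold changes, from -1.09 for Ptr4CL5 to 0.93 for PtrCSE2, with a median of 0.028 against -0.060 for all genes. The quasi-likelihood test of edgeR called 0 of the 9 members and 8.75% of all genes. It gave 3 members (Ptr4CL5, PtrHCT1 and PtrCSE2) an unadjusted p under 0.05, as it did 7266 of the 27795 genes tested. DESeq2 (14.9% of genes called) and edgeR's exact test (12.7% called) both called Ptr4CL5 and PtrHCT1 lower and PtrCSE2 higher. On TMM-scaled CPM the 7-day libraries lay wholly below the unbent ones in PtrC4H2 and PtrHCT1 (14.7% of all genes). They lay wholly above them in PtrCSE2 (16.3% of all genes), a separation that rested on the TMM scaling. Scaling by library totals alone moved the median of all genes at 7 days to -0.33, and under it Ptr4CL3 turned sign, with -0.28 in place of 0.028.

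Between 7 and 3 days 8 members had positive log2 fold changes and Ptr4CL5 had one of -0.029, with a median of 0.79 against -0.025 for all genes. Here too the quasi-likelihood test of edgeR called 0 members and 0% of all genes. It gave 6 members and 5617 of the 27795 genes tested an unadjusted p under 0.05. DESeq2 (6.81% of genes called) called PtrC4H1 and PtrCSE2 higher, and edgeR's exact test (3.22% called) called PtrCSE2 higher. PtrCSE2 was the one member whose 7-day libraries all lay above the 3-day libraries, as in 14.4% of all genes, and 0 members lay wholly below, against 11.3% of all genes. The 2 comparisons with unbent stems share the same unbent libraries.

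**Figure D1:**
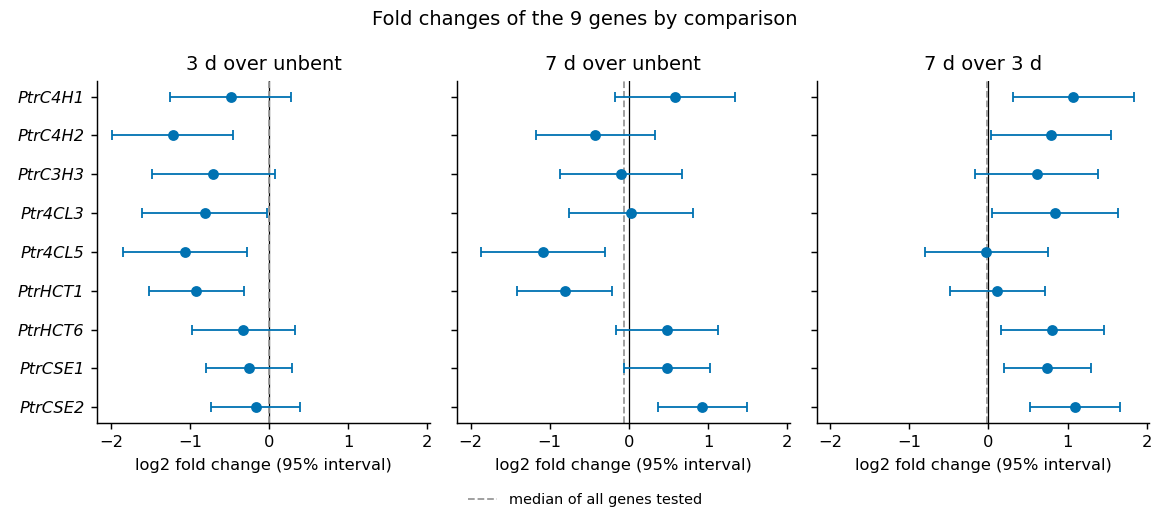
Log2 fold changes of the 9 genes from edgeR, one panel per comparison, with points for the estimate and bars for its 95% interval; the dashed line is the median of all genes tested. The 9 points lie left of 0 at 3 days, while at 7 days they spread between -1.09 and 0.93.

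The C4H step was the one at which the ratio of the paralogs passed a test over the 3 groups. The call was lost under 6 of 12 alternatives, and the steps were not tested against each other. PtrC4H1, a cytochrome P450 of the endoplasmic reticulum, measured 729.8, 1007 and 882 CPM in unbent stems, 546, 889 and 432 CPM after 3 days, and 1531, 863 and 1535 CPM after 7 days. The groups overlapped in every pair, and 7-day replicate 2 sat with the unbent libraries. Against unbent stems its log2 fold change was -0.49 (SE 0.34, edgeR adjusted p = 0.616) at 3 days and 0.59 (SE 0.34, adjusted p = 0.304) at 7 days. Between 7 and 3 days it was 1.07 (SE 0.34, edgeR adjusted p = 0.166, DESeq2 adjusted p = 0.0241).

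PtrC4H2, which encodes the same activity, measured 828, 767 and 994 CPM in unbent stems, 348, 547 and 220.1 CPM after 3 days, and 762, 474 and 698 CPM after 7 days. Every bent library was below every unbent one, at 7 days by a narrow margin. The mean was 372 ± 165 CPM at 3 days against 863 ± 118 CPM in unbent stems (SD, n = 3 each), a 2.32-fold lower level (log2 fold change -1.22, SE 0.34, edgeR adjusted p = 0.220, DESeq2 adjusted p = 0.0145). At 7 days the log2 fold change was -0.42 (SE 0.34, edgeR adjusted p = 0.459), and between 7 and 3 days it was 0.79 (SE 0.34, edgeR adjusted p = 0.232).

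Within each library the ratio of the paralogs does not depend on the scaling of the library, and its change does not depend on gene length. There were 113, 76.2 and 113 PtrC4H2 reads per 100 PtrC4H1 reads in unbent stems, 63.7, 61.5 and 50.9 after 3 days, and 49.8, 55.0 and 45.5 after 7 days. All bent libraries had a lower ratio than all unbent ones. On the log2 scale the ratio differed from unbent stems by -0.76 at 3 days and by -0.99 at 7 days, with an exact permutation p of 0.1 for each, the smallest that 3 against 3 libraries can give (two-sided, adjusted p = 0.3 over the 12 comparisons of ratios). The 7-day and 3-day ratios overlapped, with a difference of -0.23 (exact permutation p = 0.2).

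Over the 3 groups together the C4H ratio passed the test (exact permutation of libraries, p = 0.00714, adjusted p = 0.0286 over the 4 ratios). The study had already reported PtrC4H2, and not PtrC4H1, as repressed in these libraries. The test is therefore not independent of that result. The other 3 ratios did not pass. The call was lost without 3-day replicate 1 (adjusted exact p = 0.1), 3-day replicate 2 (0.114), 3-day replicate 3 (0.0714), 7-day replicate 1 (0.114) or 7-day replicate 3 (0.186). It was also lost with labels permuted only within replicate number as a block (exact p = 0.0278, the smallest this test can give, adjusted p = 0.111), an alternative added after seeing the data. The differences from unbent stems stayed between -0.95 and -0.66 at 3 days and between -1.18 and -0.89 at 7 days under all 11 alternatives. The summed level of both paralogs was 1736 ± 162 CPM in unbent stems, 994 ± 401 CPM at 3 days and 1954 ± 536 CPM at 7 days (SD, n = 3). The log2 ratio of these sums to unbent stems was -0.80 at 3 days, with all 3-day libraries lower, and 0.17 at 7 days, where scaling by library totals turned it to -0.13.

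**Figure D2:**
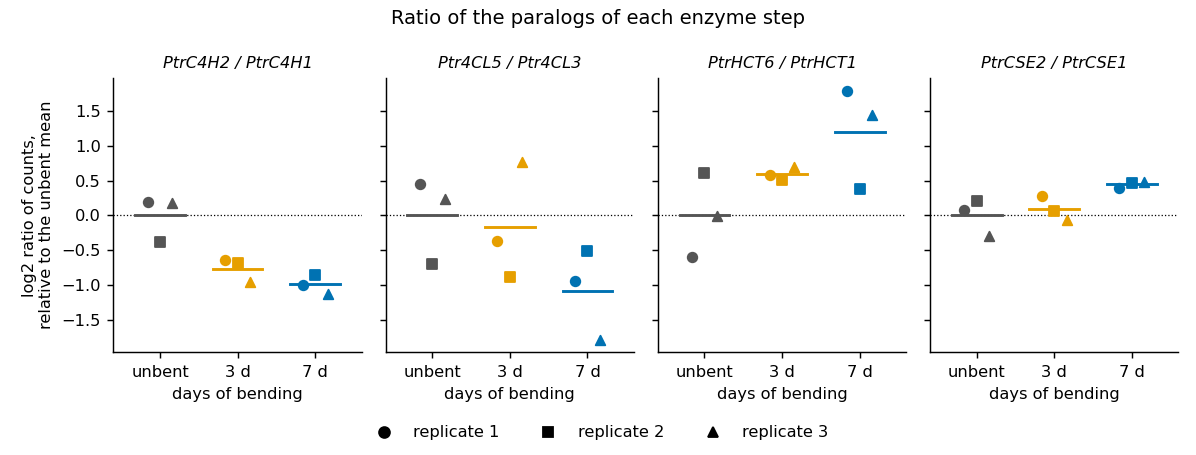
Log2 ratio of the counts of 2 paralogs in each library, set to 0 at the unbent mean, for the C4H, 4CL, HCT and CSE steps; markers give the replicate number and lines the group means. The C4H ratio is lower in all 6 bent libraries than in the 3 unbent ones, and the 7-day libraries lie closest together in the CSE ratio.

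At the ligase step Ptr4CL3 measured 475, 629 and 655 CPM in unbent stems, 312, 466 and 220.4 CPM after 3 days, and 805, 363 and 626 CPM after 7 days. All 3-day libraries were below the unbent ones, and the 7-day libraries spanned the unbent range. Its log2 fold change was -0.82 at 3 days (SE 0.35, edgeR adjusted p = 0.413), 0.028 at 7 days (SE 0.35, adjusted p = 0.969), and 0.84 between 7 and 3 days (SE 0.35, adjusted p = 0.228).

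Ptr4CL5 had lower mean values in both bent groups, but its difference in course from Ptr4CL3 did not pass a test. It measured 127, 75.8 and 150.1 CPM in unbent stems, 47.3, 49.3 and 72.9 CPM after 3 days, and 81.4, 49.3 and 35.4 CPM after 7 days. The 3-day libraries were all below the unbent ones, while 7-day replicate 1 was above unbent replicate 2. The level was 2.08-fold lower at 3 days (log2 fold change -1.06, SE 0.35, edgeR adjusted p = 0.287) and 2.12-fold lower at 7 days (-1.09, SE 0.35, edgeR adjusted p = 0.0879, range over 17 alternatives 0.0244 to 0.283). Between 7 and 3 days the log2 fold change was -0.029 with a 95% interval from -0.81 to 0.75.

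The 4CL ratio did not separate the groups. Per 100 Ptr4CL3 reads there were 26.7, 12.04 and 22.9 Ptr4CL5 reads in unbent stems, 15.1, 10.6 and 33.1 after 3 days, and 10.1, 13.6 and 5.66 after 7 days. The log2 ratio differed by -0.16 at 3 days (exact permutation p = 0.9), by -1.08 at 7 days (p = 0.2, exact) and by -0.92 between 7 and 3 days (p = 0.2, exact), and the 3-group exact p was 0.229. The sign at 3 days rested on single libraries, with 0.070 without unbent replicate 1 and 0.20 without 3-day replicate 2. The summed 4CL level was 704 ± 102 CPM in unbent stems, 389 ± 114 CPM at 3 days and 653 ± 238 CPM at 7 days (SD, n = 3). The log2 ratio of these sums to unbent stems was -0.85 at 3 days, with all 3-day libraries lower, and -0.11 at 7 days, where leaving out single libraries gave -0.39 to 0.14.

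At the entry of the shikimate shunt PtrHCT1 measured 1306, 796 and 1269 CPM in unbent stems, 515, 749 and 516 CPM after 3 days, and 564, 695 and 664 CPM after 7 days. All 6 bent libraries were below the 3 unbent ones, of which replicate 2 was the closest. The mean was 1124 ± 285 CPM in unbent stems, 593 ± 135 CPM at 3 days and 641 ± 68.3 CPM at 7 days (SD, n = 3). The log2 fold change was -0.92 at 3 days (SE 0.27, edgeR adjusted p = 0.231, DESeq2 adjusted p = 0.0138) and -0.81 at 7 days (SE 0.27, edgeR adjusted p = 0.0947, range over 17 alternatives 0.0127 to 0.256). Between 7 and 3 days it was 0.11 with a 95% interval from -0.49 to 0.71, and library totals turned it to -0.091.

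PtrHCT6 measured 60.1, 84.6 and 88.5 CPM in unbent stems, 53.5, 74.5 and 58.2 CPM after 3 days, and 136, 63.0 and 127 CPM after 7 days. The groups overlapped throughout, and 7-day replicate 2 was far below the other 7-day libraries. Its log2 fold change was -0.32 at 3 days (SE 0.29, edgeR adjusted p = 0.709), 0.48 at 7 days (SE 0.29, adjusted p = 0.322) and 0.81 between 7 and 3 days (SE 0.29, adjusted p = 0.185).

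Relative to PtrHCT1, PtrHCT6 had higher mean values in bent stems. There were 4.60, 10.6 and 6.97 PtrHCT6 reads per 100 PtrHCT1 reads in unbent stems, 10.4, 9.95 and 11.3 after 3 days, and 24.1, 9.07 and 19.1 after 7 days. The groups overlapped through unbent replicate 2 and 7-day replicate 2. The log2 ratio differed from unbent stems by 0.59 at 3 days (exact permutation p = 0.3) and by 1.20 at 7 days (exact permutation p = 0.2), and the 3-group test gave an exact p of 0.1 (adjusted p = 0.133). Without 7-day replicate 2 that test passed (adjusted exact p = 0.0286), with a 7-day difference of 1.62. The summed HCT level, most of it reads of PtrHCT1, was 1202 ± 278 CPM in unbent stems, 655 ± 146 CPM at 3 days and 749 ± 45.8 CPM at 7 days (SD, n = 3). The log2 ratios to unbent stems were -0.87 at 3 days and -0.68 at 7 days, and all bent libraries lay below all unbent ones.

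PtrC3H3, the single C3H gene of the group and the hydroxylase that acts on the shikimate ester, measured 934, 711 and 918 CPM in unbent stems, 516, 741 and 314 CPM after 3 days, and 953, 535 and 908 CPM after 7 days. Replicate 2 was the highest of the 3-day libraries and the lowest of the unbent and the 7-day libraries, and all groups overlapped. Its log2 fold change was -0.71 at 3 days (SE 0.35, edgeR adjusted p = 0.471), -0.097 at 7 days (SE 0.34, adjusted p = 0.884) and 0.61 between 7 and 3 days (SE 0.34, adjusted p = 0.338). The 7-day value was 0.13 without 7-day replicate 2.

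The esterase genes had similar courses at the last step of the shunt. PtrCSE1 measured 93.7, 137 and 139 CPM in unbent stems, 91.9, 122 and 95.6 CPM after 3 days, and 191, 121 and 205 CPM after 7 days. Of the 7-day libraries replicate 2 alone lay within the unbent range. The log2 fold change was -0.26 at 3 days (SE 0.24, edgeR adjusted p = 0.727), 0.48 at 7 days (SE 0.24, adjusted p = 0.244) and 0.74 between 7 and 3 days (SE 0.24, adjusted p = 0.171).

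PtrCSE2 measured 59.8, 95.7 and 68.2 CPM in unbent stems, 67.2, 76.9 and 54.8 CPM after 3 days, and 151, 101 and 173 CPM after 7 days. After TMM scaling all 7-day libraries were above all unbent and all 3-day libraries. The separation from unbent stems rested on that scaling. By counts over library totals alone, 7-day replicate 2 (2091 of 21226380) lay below unbent replicate 2 (2977 of 28866573). The mean was 142 ± 37.0 CPM at 7 days against 74.5 ± 18.8 CPM in unbent stems (SD, n = 3 each), a 1.90-fold higher level (log2 fold change 0.93, SE 0.25, edgeR adjusted p = 0.0513, range over 17 alternatives 0.00627 to 0.201). It was 2.14-fold higher at 7 days than at 3 days (log2 fold change 1.10, SE 0.25, edgeR adjusted p = 0.149, range over 18 alternatives 0.00481 to 0.462). At 3 days its log2 fold change from unbent stems was -0.17 (SE 0.25, edgeR adjusted p = 0.838), and 0.088 without unbent replicate 2.

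There were 63.8, 69.7 and 49.2 PtrCSE2 reads per 100 PtrCSE1 reads in unbent stems, 73.2, 63.1 and 57.3 after 3 days, and 79.4, 83.5 and 84.2 after 7 days. The 7-day ratios lay above those of both other groups. The log2 ratio differed by 0.45 between 7-day and unbent stems and by 0.36 between 7 and 3 days (exact permutation p = 0.1 for each, the smallest possible), and by 0.092 between 3-day and unbent stems (exact permutation p = 0.7). The 3-group test did not pass (exact p = 0.0821, adjusted p = 0.133). The summed CSE level was 198 ± 40.5 CPM in unbent stems, 169 ± 25.7 CPM at 3 days and 314 ± 82.1 CPM at 7 days (SD, n = 3). The log2 ratios to unbent stems were -0.22 at 3 days and 0.67 at 7 days, where scaling by library totals gave 0.37. Both bent groups overlapped the unbent one, with 7-day replicate 2 at 222 CPM and unbent replicate 2 at 233 CPM. All 7-day sums lay above all 3-day sums.

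**Figure D3:**
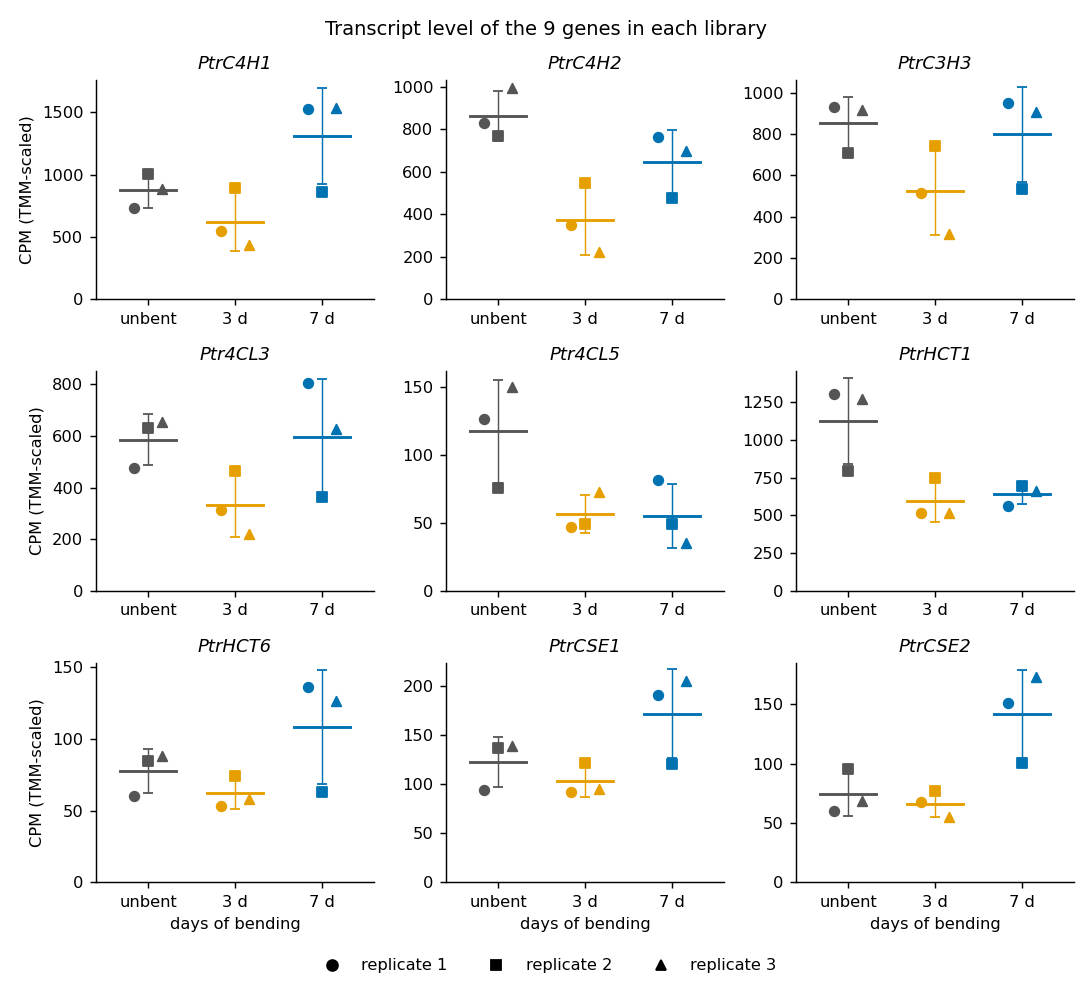
TMM-scaled CPM of each of the 9 genes in the 9 libraries, by days of bending; markers give the replicate number, lines the group mean and bars the SD. PtrC4H2 and PtrHCT1 are lower in every bent library than in every unbent one, and PtrCSE2 is higher in every 7-day library.

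Part of the spread within groups was shared among members. In the 3-day group replicate 2 was the highest library for 8 of the 9 genes, with Ptr4CL5 as the exception, and in the 7-day group replicate 2 was the lowest library for 7 of the 9, with Ptr4CL5 and PtrHCT1 as exceptions. The summed cellulose synthase level was also highest in replicate 2 within the 3-day group and lowest in it within the 7-day group. The part of these libraries in the results was not tested beyond leaving each out. Without 3-day replicate 2 the median log2 fold change of the members at 3 days was -0.97, and without 7-day replicate 2 their median at 7 days was 0.29.

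Over the 9 libraries, which share their groups and scaling, the paralogs of a step were like each other to differing degrees. Pearson's r of log2 CPM was 0.91 for the CSE pair, 0.72 for the C4H pair, 0.25 for the 4CL pair and -0.025 for the HCT pair, as a description. PtrC4H1 was most like PtrPAL5, a phenylalanine ammonia-lyase (r = 0.99), and PtrC4H2 was most like the cellulose synthase gene PtrCesA4 (r = 0.99). PtrHCT6 and PtrCSE1 were most like each other (r = 0.97).

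The other members also had close matches among the 31 genes that the study names. PtrC3H3 was most like the cellulose synthase gene PtrCesA17 (r = 0.96), and Ptr4CL3 was most like PtrAldOMT2, an O-methyltransferase of the syringyl branch (r = 0.95). Ptr4CL5 was most like PtrPAL3 (r = 0.95). PtrCSE2 was most like the xylan synthesis gene PtrIRX10-1 (r = 0.94). PtrHCT1 had the lowest best match, with the MYB factor PtrMYB092 (r = 0.85), followed by the heat shock factor gene PtrHSFB3-1 (r = 0.85).

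The other 13 monolignol genes of the study, which act before and after these steps, had medians of -0.81 at 3 days, 0.19 at 7 days and 0.89 between 7 and 3 days, beside -0.71, 0.028 and 0.79 for the 9 members. No test of the difference between the lists was made. By edgeR's quasi-likelihood test 0 of the 13 passed at 3 days and 0 between 7 and 3 days. At 7 days 2 fell and 0 rose, PtrPAL1 (log2 fold change -2.12, edgeR adjusted p = 0.0169) and PtrPAL3 (-1.98, adjusted p = 0.0215), while 8.75% of all 27795 genes were called, 745 lower and 1687 higher. Both encode PAL, the enzyme before C4H, and the other 3 PAL genes had positive values that did not pass, 0.099 for PtrPAL2, 0.70 for PtrPAL4 and 0.68 for PtrPAL5. These genes were named by the study with results of these libraries in hand, so their direction is not independent evidence.

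**Figure D4:**
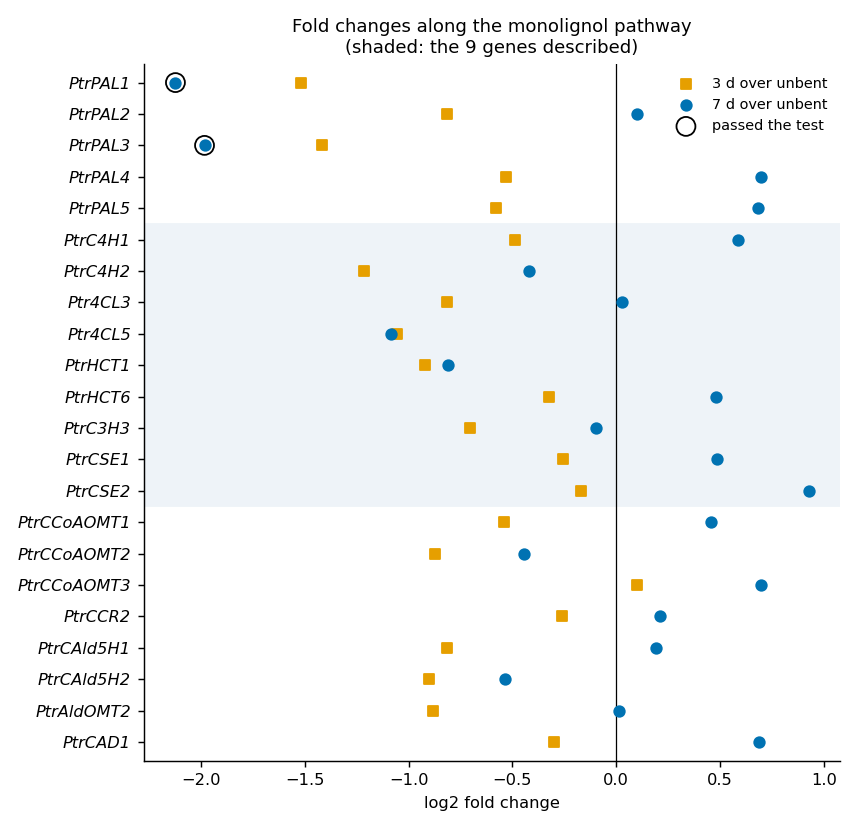
Log2 fold changes against unbent stems of 22 monolignol genes in pathway order, with squares for 3 days, circles for 7 days, rings for genes that passed edgeR's test and shading for the 9 genes described. At 3 days 21 of 22 squares lie left of 0, and the rings fall on PtrPAL1 and PtrPAL3.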

How the data were processed

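The file deposited by the authors holds unnormalized read counts, 1 column per library, for 41335 version 3 gene models (Potri identifiers). Per the labels the reads were aligned with TopHat. How reads were counted, with or without strand, is not given in the sources used here. Columns were matched to sample titles, and 0 were left over. No pair of replicates looked like one library deposited again (chi-square of 22.0 to 92.4 per gene, over genes with at least 20 counts).

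Counts were filtered with filterByExpr, scaled by TMM and fitted over all 9 libraries and 3 groups with the quasi-likelihood model of edgeR 4.0.16 in R 4.3.3. Tests were two-sided, p-values were adjusted over 27795 genes by Benjamini-Hochberg, and a gene was called at an adjusted p under 0.05. Paralog ratios were log2 ratios of counts after adding 0.5, compared by exact permutation of libraries. Likeness used log2 CPM with a prior count of 2. The code was tested on simulated data. Alternatives included DESeq2 1.42.0. Deviations of same-numbered 3-day and 7-day libraries correlated (0.280, 0.244 and 0.174), a hint of pairing that comes from the data and not the labels. The hint is weak. Different-numbered libraries of these groups gave -0.272 to 0.0289, but 3-day replicate 3 and unbent replicate 2 reached 0.330. Same-numbered bent and unbent libraries ranged from -0.341 (replicate 2 at 7 days) to 0.392 (replicate 1 at 3 days). All values in the report are from unpaired tests unless a block is named. With the replicate block the comparison of 7 with 3 days called 0 members, with edgeR adjusted p of 0.202 or more.

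The 9 members and the other lists were chosen with earlier results of these data known. The text names all 9 members, the gene most like each among the 31 of the study, the factors PtrMYB092 and PtrHSFB3-1, and those of the other 13 monolignol genes that passed the test. The member identifiers matched 0 entries of the reference table (assembly P.trichocarpa_v4.1), so no coordinates, lengths or transcript sequences were used. Primer sequences are those of the study.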

Additional observations from a re-analysis of the deposited data

How the results depend on the processing

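Of 468 refits of the 27 member fold changes, 438 kept their sign and their side of the threshold, 18 kept the sign and newly passed, and 12 turned sign. Of the 27 values 22 never turned sign, and the others lay between -0.17 and 0.11. By library totals Ptr4CL3 at 7 days was -0.28 and PtrHCT1 between 7 and 3 days was -0.091. By omission of a library, Ptr4CL3 at 7 days ranged from -0.24 to 0.29 (-0.13 when unbent replicate 1 was omitted, -0.24 for 7-day replicate 1, -0.0025 for 7-day replicate 3), PtrC3H3 at 7 days from -0.24 to 0.13, and PtrCSE2 at 3 days from -0.29 to 0.088. Between 7 and 3 days Ptr4CL5 ranged from -0.41 to 0.21 (0.16 without 3-day replicate 3, 0.051 for 7-day replicate 2) and PtrHCT1 from -0.025 to 0.32 (-0.025 without 3-day replicate 1, -0.012 for 3-day replicate 3).

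Members called lower at 3 days were 0 by edgeR and 2 by DESeq2. Members called lower at 7 days were 0 by edgeR, 2 each by library totals, DESeq2 and the exact test, and 0 to 1 when a library was left out (1, PtrHCT1, without unbent replicate 2). Members called higher at 7 days were 1, PtrCSE2, by RLE factors, a stricter filter (1 CPM or more throughout a group), DESeq2, the exact test and without replicate 2 of the unbent or 7-day group, and otherwise 0. Between 7 and 3 days 2 were called higher by DESeq2 and 1 by the exact test.

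Genes called in all were 881 by DESeq2 and 454 by the exact test at 3 days (0 to 30 with a library left out), 4361 by DESeq2 at 7 days (343 to 2704 with a library left out, lowest without 7-day replicate 3), and 1711 and 868 between 7 and 3 days (0 to 3 with a library left out). Calls at 7 days split into 1687 higher and 745 lower by TMM but 1101 and 2119 by library totals. With the replicate block 0, 1847 and 0 genes and 0 members were called in the 3 comparisons, and a blocked fit without the unbent libraries, chosen after seeing the data, called 0. Permuting labels only within replicate number, also chosen after seeing the data, ended the C4H 3-group call (exact p = 0.0278, adjusted p = 0.111). That exact p is the smallest this test can give, and over 4 ratios it passes only if other ratios reach it too. The block changed no call of a member or of a paralog ratio between 2 groups, where its smallest exact p is 0.25.

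With a library left out the 3-day 4CL ratio difference ranged from -0.62 to 0.20 and the CSE one from -0.054 to 0.20, the exact p of the C4H 3-group test from 0.00714 to 0.0464 and that of the HCT test from 0.0107 to 0.214. The causes were not tested. With 3 libraries a group, the SE of a member's log2 fold change was 0.24 to 0.35.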
